A study of Mus musculus with 61 samples.

Results

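Pancreatic ductal organoid cells carrying Ngn3 together with Pdx1 were compared with cells carrying Ngn3 together with MafA, so that the second factor was the only labelled difference. The organoids were three-dimensional cultures grown from ducts of C57BL/6 mice. They were infected at once with 3 lentiviral vectors, each pairing a factor with its own fluorescent protein under a doxycycline-inducible promoter, and with a vector for the inducible transactivator, and pools of 50 cells of each colour combination were sorted 8 days after induction. Ngn3 was labelled by GFP, Pdx1 by LSS-Orange and MafA by tdTomato. Ngn3 was either the wild-type protein (WT) or a mutant with 6 serines changed to alanine (6SA) and therefore without phosphorylation at those sites. The combinations were set apart by the sorting gate for colour. The vectors carry the mouse coding sequences, so reads from a vector and from the cell's own gene cannot be told apart.

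The comparison used 12 samples of the 32 samples in the series, 6 with Ngn3 and Pdx1 and 6 with Ngn3 and MafA, and each combination had 3 biological replicates with WT and 3 with 6SA Ngn3. They came from 20 of 61 sequenced libraries, chosen by the sort labels alone. All 20 had over 1000000 counts on genes, and libraries of the same replicate (technical repeats, each a pool of cells) were summed. Replicates 1 and 2 of every group came from passage 2 organoids, and replicate 3 from passage 5. Totals per sample were 2579583 to 19461008 counts on genes with Pdx1 and 6281600 to 15269107 with MafA. Levels are given in CPM, that is, counts per 1000000 of a library's TMM-scaled size. The lowest level that 3 counts can show was 0.136 to 1.01 CPM depending on the sample, which covers counting error only. Differences are log2 fold changes of Ngn3 with Pdx1 over Ngn3 with MafA, fitted by edgeR within WT and within 6SA and then averaged, and a gene was called when its p-value, adjusted over all 24004 genes tested, was under 0.05. The labels do not say whether replicates came from separate animals, so p-values measure the spread between these samples.

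Ngn3 (gene Neurog3) is the basic helix-loop-helix factor that commits duct-like progenitors to the endocrine lineage of the pancreas. Pdx1 is a homeodomain factor of pancreatic progenitors that later persists in β- and δ-cells, and MafA is a leucine-zipper factor that in the mouse marks mature β-cells. The islet holds insulin (β), glucagon (α), somatostatin (δ), pancreatic polypeptide and ghrelin (ε) cells, and related peptide-producing cells line the gut.

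The sample labelled WT Ngn3+Pdx1 replicate 3 stood apart from the other samples with Pdx1, with Sst at 19.0 CPM against 5788 to 13797 CPM. Without it 39 genes were called in place of 32. The summed level of 9 mesenchyme and endothelium markers was 311 CPM in WT Ngn3+MafA replicate 1. In the other 11 samples it was at most 27.1 CPM. The 2 pools of WT Ngn3+MafA replicate 1 were at 5.22 and 562 CPM. The pools of 6SA Ngn3+Pdx1 replicate 1 were at 2.16, 0.137 and 83.2 CPM. The part of these markers in the results was not tested apart from the values without WT Ngn3+MafA replicate 1 given with the genes. Duct genes were abundant in every sample, with a summed level of 15360 to 56830 CPM with Pdx1 and 15260 to 30340 CPM with MafA. The 8 acinar genes tested summed to 2.48 to 33.4 CPM, and the 5 immune markers tested to 1.01 to 44.2 CPM.

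The factors themselves were measured first. Neurog3 was at 7.87 to 226 CPM with Pdx1 (median 38.5) and 24.9 to 212 CPM with MafA (median 58.1), ranges that overlapped fully. The log2 fold change was −0.44 (SE, the standard error, 0.60, edgeR adjusted p = 1.0). Mafa had 1 count in the 6 samples sorted for Ngn3 and Pdx1 and 163 counts in the 6 sorted for Ngn3 and MafA, where its level was 0.306 to 7.79 CPM (median 1.94). All 6 samples with MafA were above all 6 with Pdx1 (edgeR adjusted p = 0.0386). The ratio of levels was 166-fold with a 95% counting interval of 29.4 to 6610.4, which ignores the spread between samples. Mafa thus followed the sort labels, at a low level. Pdx1 was at 9.84 to 48.4 CPM with the Pdx1 vector (median 33.2) and 3.21 to 30.6 CPM without it (median 11.2). It was higher with the vector in each of the 6 pairs of samples with the same Ngn3 form and replicate number (culture pairs), but the groups overlapped and the log2 fold change of 1.36 (SE 0.51) missed the threshold (edgeR adjusted p = 0.388). With the replicate number as a block in the model, it passed (adjusted p = 0.011).

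**Figure D1:**
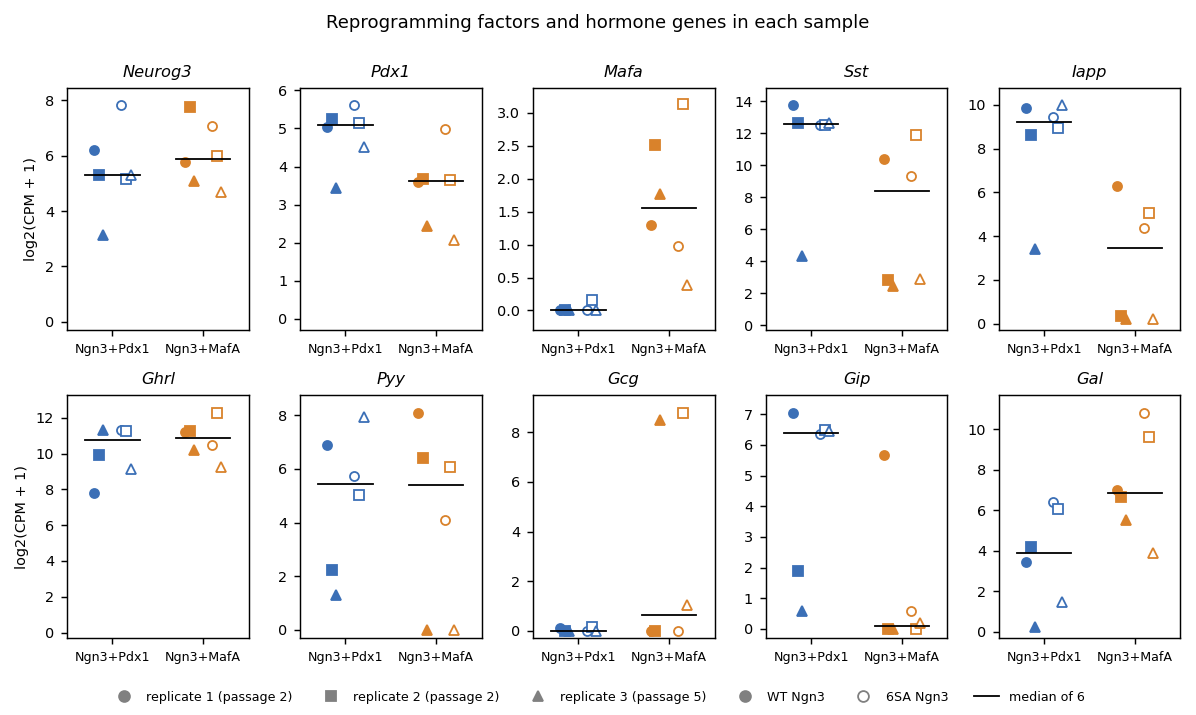
Level of the 3 reprogramming factors, 5 islet hormone genes and the peptide genes Gip and Gal in each of the 12 samples, as log2(CPM + 1) on the vertical axis, by combination on the horizontal axis. Filled symbols are WT and open symbols 6SA samples, shape gives the replicate, and the bar is the median of 6. Iapp was at least 392 CPM in 5 of the 6 samples with Pdx1 and at most 76.6 CPM with MafA, and Gcg reached over 300 CPM in 2 samples with MafA only.

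No islet hormone gene passed the threshold without the block, and Iapp and Gcg passed it with the block, in opposite directions. Iapp, which encodes the amyloid peptide that β-cells release with insulin, was at 933, 392 and 9.51 CPM in the WT and 696, 489 and 1013 CPM in the 6SA samples with Pdx1. With MafA it was at 76.6, 0.261 and 0.151 CPM in the WT and 19.6, 31.9 and 0.153 CPM in the 6SA samples. It was higher with Pdx1 in all 6 culture pairs, and 5 samples with Pdx1 lay above every sample with MafA. The log2 fold change was 4.75 (SE 1.29, edgeR adjusted p = 0.161, and 0.00372 with the replicate block), and an exact permutation test within Ngn3 forms gave a two-sided p of 0.01, where the smallest possible was 0.005. The difference was 4.30 within passage 2 and 9.22 within passage 5, and without WT Ngn3+MafA replicate 1 it was 8.19 and passed the threshold (edgeR adjusted p = 0.022).

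Sst (somatostatin, the δ-cell hormone) was the most abundant hormone gene by its median with Pdx1. It was at 19.0 to 13797 CPM with Pdx1 (median 6067) and 4.54 to 3718 CPM with MafA (median 328). In 3 of the samples with MafA Sst was under 7 CPM and in the other 3 between 651 and 3718 CPM, and in 5 of the 6 samples with Pdx1 it was at or above 5788 CPM. Sst was higher with Pdx1 in all 6 culture pairs, but the log2 fold change of 2.97 (SE 1.20) passed neither without the block nor with it (edgeR adjusted p = 0.452 and 0.155).

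Gcg (glucagon, the α-cell hormone) had 2 counts in the 6 samples with Pdx1. With MafA it was at 359 CPM in WT replicate 3 and 443 CPM in 6SA replicate 2, at 1.07 CPM in 6SA replicate 3, and at 0 in the other 3 samples. In 6SA replicate 2 all of its counts came from 1 of 2 pools, which had 539.5 CPM. The ratio over the 6 and 6 samples was 3393-fold with a counting interval of 939 to 28026, which ignores the spread between samples. The test gave an edgeR adjusted p of 0.0567 (0.0173 with the replicate block, 1.0 without WT Ngn3+MafA replicate 3). Gcg was thus present in 3 of the 6 samples with MafA, and 2 of them held all but 7 of its counts there.

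The other islet hormone genes passed in neither fit. Ghrl (ghrelin) was high in all 12 samples, at 221 to 2558 CPM with Pdx1 and 597 to 4934 CPM with MafA, a log2 fold change of −0.50 (SE 0.72, edgeR adjusted p = 1.0). Pyy (peptide YY) was at 1.48 to 241 CPM with Pdx1 and 0 to 272 CPM with MafA (log2 fold change 0.23, edgeR adjusted p = 1.0). Ppy (pancreatic polypeptide) did not exceed 11.2 CPM in any sample and was at 0 in 7 of 12. Ins1 had 13 counts in 3 samples with Pdx1 and none with MafA, at or below 0.698 CPM, and Ins2 had no count in any of the 12 samples. In 6SA Ngn3+Pdx1 replicates 1 and 2 Ins1 had 6 counts each, at 0.272 and 0.698 CPM. The level that 3 counts can show in those samples was 0.136 and 0.349 CPM, so Ins1 was above it there. All insulin levels were below 1.01 CPM, the level that 3 counts can show in the shallowest sample.

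Of 22 enteroendocrine and neuropeptide genes 16 could be tested, none passed without the block, and the 2 that passed with it moved in opposite directions. The background share of called genes was 0.133% without the block and 0.900% with it. Gip, the incretin of intestinal K cells, was at 132, 2.70 and 0.492 CPM in WT and 81.3, 88.0 and 86.1 CPM in 6SA samples with Pdx1. With MafA it reached 49.9 CPM in WT replicate 1 and was below 0.5 CPM in the other 5 samples. All 3 6SA samples with Pdx1 were high, and only 1 of 3 WT samples was. Pools of the same sample differed in Gip. They were at 287 and 3.67 CPM in WT Ngn3+Pdx1 replicate 1 and 107.5 and 0.146 CPM in WT Ngn3+MafA replicate 1. In 6SA Ngn3+Pdx1 they were at 191, 24.7 and 16.2 CPM in replicate 1 and 244 and 2.34 CPM in replicate 2. The log2 fold change was 4.88 (SE 1.22, edgeR adjusted p = 0.109, and 0.000796 with the replicate block). Gal, which encodes the neuropeptide galanin, went the other way, at 0.164 to 83.7 CPM with Pdx1 (median 13.7) and 13.9 to 1791 CPM with MafA (median 113). It was higher with MafA in all 6 culture pairs, with a log2 fold change of −3.72 (SE 1.05, edgeR adjusted p = 0.188, and 0.000701 with the replicate block).

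Across the transcriptome, 32 of 24004 genes were called (0.133%), 21 higher with Pdx1 (0.0875%) and 11 higher with MafA (0.0458%). All 32 had the same sign in WT and in 6SA cells. In 17 of them all 6 samples of one combination lay above all 6 of the other, against 103 such genes among all those tested (52 higher with Pdx1, 0.217%, and 51 higher with MafA, 0.212%). For 22 of the 32 the exact permutation test within Ngn3 forms gave its smallest p, 0.005. Groups without overlap give that p by construction. The genes were also called in these same samples, so the permutation p is a description and not separate evidence. The call held whichever of the 12 samples was left out for 11 genes, namely Il1rn, Col14a1, Arhgef38, Btc, Rnf39, Lmo7, Ptn and the predicted gene Gm2861 on the side of Pdx1 and Col6a3, Mmd and Gsdma on the side of MafA. With the replicate block 216 genes were called (0.900%), 165 higher with Pdx1 (0.687%) and 51 higher with MafA (0.212%), among them all 32. DESeq2 called 285 genes, 217 higher with Pdx1 and 68 higher with MafA, also with all 32 among them. The median log2 fold change of all genes was 0.05.

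**Figure D2:**
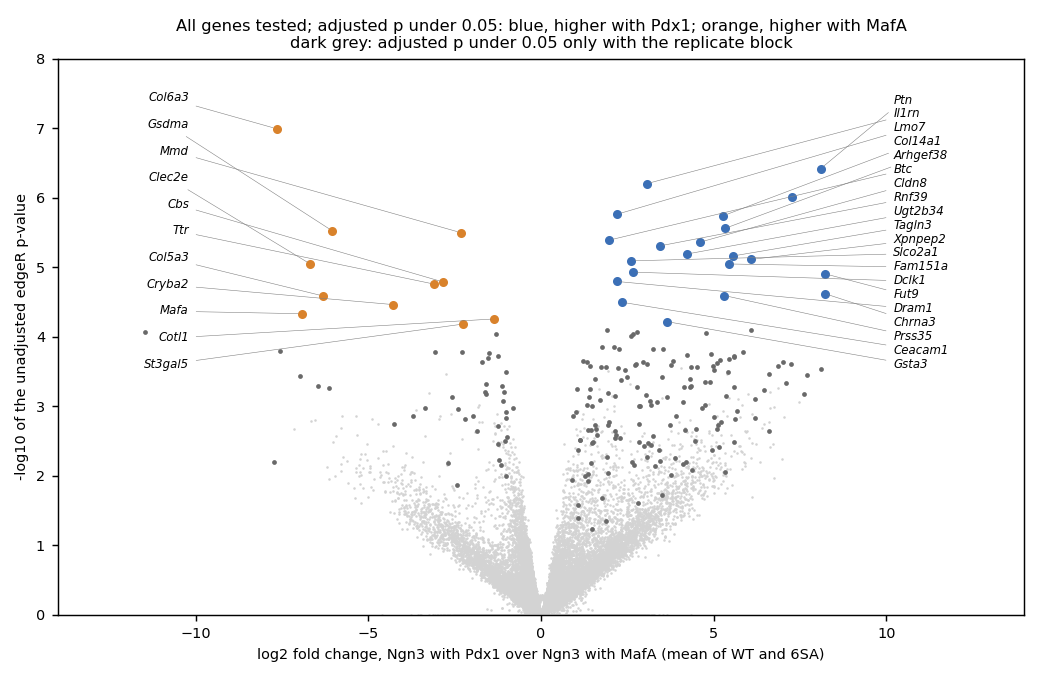
Log2 fold change of Ngn3 with Pdx1 over Ngn3 with MafA (horizontal axis) against −log10 of the unadjusted edgeR p-value (vertical axis) for the 24004 genes tested. Blue genes (21) were called higher with Pdx1 and orange genes (11) higher with MafA, dark grey genes were called with the replicate block only, and light grey genes were not called.

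Promoters of genes picked from each side are shown with the motifs of the 3 kinds of factor, because the data set the factors against each other. The reason for each pick is given below, and Iapp was not called without the block. They are 250 bases before to 50 after the transcription start, from RefSeq on GRCm38.p6, read 5′ to 3′ on the gene's strand. Capitals mark E-boxes (CANNTG, the site of basic helix-loop-helix factors, which includes CAGATG), the homeodomain core TAATTA and the Maf core TGCTGA, each on either strand. Il1rn (chr2:24336610-24336909, + strand) and Col6a3 (chr1:90843922-90844221, − strand) had the lowest adjusted p among genes without overlap on their side, Iapp (chr6:142298175-142298474, + strand) had the largest log2 fold change toward Pdx1 among the 8 islet hormone genes, and Cryba2 (chr1:74893094-74893393, − strand) had the highest level among the called genes.
Il1rn: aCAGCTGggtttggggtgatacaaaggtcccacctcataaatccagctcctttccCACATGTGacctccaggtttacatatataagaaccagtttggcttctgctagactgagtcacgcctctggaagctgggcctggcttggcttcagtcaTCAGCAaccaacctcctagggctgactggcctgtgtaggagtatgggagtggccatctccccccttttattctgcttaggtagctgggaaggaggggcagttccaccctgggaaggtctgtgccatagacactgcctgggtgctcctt
Iapp: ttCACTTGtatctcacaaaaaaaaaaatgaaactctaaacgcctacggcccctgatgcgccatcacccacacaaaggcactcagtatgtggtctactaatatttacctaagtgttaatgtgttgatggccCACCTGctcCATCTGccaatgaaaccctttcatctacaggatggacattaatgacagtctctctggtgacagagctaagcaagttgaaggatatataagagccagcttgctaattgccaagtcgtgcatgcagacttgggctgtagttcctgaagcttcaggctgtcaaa
Col6a3: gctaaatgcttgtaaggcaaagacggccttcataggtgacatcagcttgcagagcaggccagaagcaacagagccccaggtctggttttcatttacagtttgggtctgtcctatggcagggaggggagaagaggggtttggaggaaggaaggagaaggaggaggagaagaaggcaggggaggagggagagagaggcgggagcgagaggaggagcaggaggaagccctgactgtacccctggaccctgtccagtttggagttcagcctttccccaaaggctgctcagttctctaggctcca
Cryba2: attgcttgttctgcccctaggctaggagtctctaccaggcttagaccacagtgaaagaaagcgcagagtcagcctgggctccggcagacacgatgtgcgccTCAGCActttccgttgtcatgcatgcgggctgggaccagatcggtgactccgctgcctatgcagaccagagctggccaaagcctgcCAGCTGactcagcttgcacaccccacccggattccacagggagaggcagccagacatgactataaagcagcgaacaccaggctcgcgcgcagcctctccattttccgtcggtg

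The Il1rn window held 3 E-boxes, 2 of them overlapping, and 1 Maf core, the Iapp window 3 E-boxes, 1 of them CAGATG on the minus strand, the Cryba2 window 1 E-box and 1 Maf core, and the Col6a3 window none of these letters. Windows were found for 13440 of the 24004 genes tested. Among called genes higher with Pdx1, TAATTA was in 1 of 17 windows (5.88%), against 2.8% of all windows, and TGCTGA in 4 (23.5%) against 16.2%. Among those higher with MafA, TGCTGA was in 4 of 7 windows (57.1%) and TAATTA in none. In the larger sets called with the replicate block, TAATTA was in 12 of 125 windows higher with Pdx1 (9.6%) and 0 of 37 higher with MafA, TGCTGA in 20 of 125 (16%) and 9 of 37 (24.3%), and the longer TGCTGAC in 5 of 125 (4%) and 3 of 37 (8.11%) against 3.92% of all windows. E-boxes of any kind were in 71.2% and 70.3% of those windows and 65.2% of all. CAGATG was in 14.4% and 18.9% of them and 12.7% of all. These shares describe letters in a window and were not tested.

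The genes higher with Pdx1 in which the groups did not overlap included a secreted inhibitor, a growth factor and epithelial surface proteins. Il1rn, the interleukin-1 receptor antagonist (ENSMUSG00000026981, chromosome 2 of GRCm38, 24336853 to 24351494), was at 119 to 506 CPM with Pdx1 (median 299) and 9.26 to 67.8 CPM with MafA (median 28.3), a log2 fold change of 3.06 (SE 0.48, edgeR adjusted p = 0.005). Btc, the EGF-family ligand betacellulin (ENSMUSG00000082361, chromosome 5 of GRCm38, 91357261 to 91402994), was at 10.9 to 45.4 CPM (median 25.4) against 4.39 to 10.8 CPM (median 6.47), and the highest sample with MafA was just under the lowest with Pdx1. Its log2 fold change was 1.97 (SE 0.34, edgeR adjusted p = 0.00944). Col14a1, a fibril-associated collagen chain, was at 7.64 to 20.9 CPM against 0 to 3.32 CPM (log2 fold change 5.27, SE 0.87, edgeR adjusted p = 0.00726). Dclk1, a doublecortin-like kinase that marks tuft cells of the gut and pancreas, was at 53.6 to 242 CPM against 9.34 to 34.6 CPM (log2 fold change 2.67, SE 0.50, edgeR adjusted p = 0.0148). These 4 genes were expressed in every sample with Pdx1 of both passages.

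The rest included transporters, enzymes and adhesion molecules. Slco2a1, the prostaglandin transporter (log2 fold change 2.62, edgeR adjusted p = 0.0119), was at 30.2 to 123 CPM with Pdx1 and 2.60 to 16.3 CPM with MafA. Ceacam1, an epithelial adhesion molecule (log2 fold change 2.35, edgeR adjusted p = 0.0284), was at 14.8 to 51.3 CPM and 0.605 to 14.4 CPM. Dram1, an autophagy gene regulated by p53 (log2 fold change 2.19, edgeR adjusted p = 0.0178), was at 53.8 to 129.8 CPM and 3.39 to 41.0 CPM. Each of these 3 was higher in every sample with Pdx1 than in any with MafA. Ugt2b34, a glucuronosyltransferase (log2 fold change 4.23, edgeR adjusted p = 0.0118), reached 54.6 CPM with Pdx1 and at most 3.12 CPM with MafA. Arhgef38 (5.33, edgeR adjusted p = 0.00845) and the RING finger gene Rnf39 (3.44, edgeR adjusted p = 0.00985) were called at levels of at most 12.8 and 23.1 CPM. Fut9, the fucosyltransferase that makes the Lewis X antigen, had 306 counts with Pdx1 and 1 with MafA, a ratio of 299.8-fold (counting interval 53.4 to 11881, edgeR adjusted p = 0.0149). Gsta3, a glutathione transferase and the 1 of 16 antioxidant response genes called higher with Pdx1, overlapped between groups at 10.6 to 284 against 1.86 to 59.1 CPM (log2 fold change 3.65, edgeR adjusted p = 0.047).

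The remaining called genes higher with Pdx1 were 1 predicted gene and 8 genes whose groups overlapped, which were named after their values were seen (Lmo7, Cldn8, Prss35, Tagln3, Ptn, Fam151a, Xpnpep2 and Chrna3). Tagln3, a neuronal relative of transgelin, was at 13.0 to 108 CPM in 5 samples with Pdx1, at 0.492 CPM in WT replicate 3, and at most 3.55 CPM with MafA (log2 fold change 5.56, edgeR adjusted p = 0.0118). Ptn, the heparin-binding growth factor pleiotrophin, had 1010 counts with Pdx1 and 2 with MafA, and was at 0 in the same WT replicate 3 (ratio 495-fold, counting interval 137 to 4091, edgeR adjusted p = 0.00454). Chrna3, a nicotinic acetylcholine receptor subunit, had 628 counts with Pdx1, all in the 4 samples of passage 2, and 1 with MafA (edgeR adjusted p = 0.0239). Its exact permutation p was 0.08, the largest among the called genes. Xpnpep2, a membrane aminopeptidase, had a log2 fold change of 6.82 within passage 2 and −0.60 within passage 5. Fam151a, at up to 217 CPM with Pdx1 and 9.65 CPM with MafA (5.44, edgeR adjusted p = 0.0119), overlaps the antisense gene Acot11, and reads of the 2 cannot be told apart if counting ignored strand.

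On the side of MafA, 4 genes apart from Mafa itself were higher in every sample with MafA than in any with Pdx1. Col6a3, a chain of collagen VI (ENSMUSG00000048126, chromosome 1 of GRCm38, 90765923 to 90843971), had levels of 17.1, 25.7 and 9.08 CPM in the WT and 68.3, 38.2 and 3.06 CPM in the 6SA samples with MafA, and at most 0.634 CPM with Pdx1. Its log2 fold change of −7.66 (SE 1.02) had the lowest adjusted p of all genes tested (edgeR, 0.00243). Col6a3 is also a gene of mesenchymal cells. The mesenchyme collagen Col1a2 was at 188 CPM in WT Ngn3+MafA replicate 1, at most 0.652 CPM in the other 5 samples with MafA and at 0 in those with Pdx1. Sparc, a matrix glycoprotein gene that mesenchymal and other cells express and that was chosen after its values were seen, was at 85.2 to 999 CPM with MafA and 19.3 to 101 CPM with Pdx1, and was higher with MafA in all 6 culture pairs (log2 fold change −3.09, SE 0.71, edgeR adjusted p = 0.0822, and 0.00893 with the replicate block). The part of mesenchymal cells in the Col6a3 difference was not tested. Without WT Ngn3+MafA replicate 1 the Col6a3 difference was −7.66 (edgeR adjusted p = 0.00129). Cryba2, a β-crystallin gene that islet endocrine cells also express (ENSMUSG00000006546, chromosome 1 of GRCm38, 74889934 to 74893143), was at 58.1 to 1216 CPM with MafA (median 398) and 8.04 to 34.9 CPM with Pdx1 (median 24.4), a log2 fold change of −4.28 (SE 0.87, edgeR adjusted p = 0.0295). It was the 1 of 10 crystallin genes tested that was called. The call was lost in 10 of the 12 fits that left out a sample, while the log2 fold change stayed between −4.54 and −4.02.

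Cbs, which encodes cystathionine β-synthase of the transsulfuration pathway (ENSMUSG00000024039, chromosome 17 of GRCm38, 31608894 to 31637238), was at 170.3 to 492 CPM with MafA (median 218) and 10.8 to 56.6 CPM with Pdx1 (median 36.1), a log2 fold change of −2.84 (SE 0.54, edgeR adjusted p = 0.0178). St3gal5, the enzyme that makes the ganglioside GM3 (ENSMUSG00000056091, chromosome 6 of GRCm38, 72097592 to 72154571), was at 50.8 to 266 CPM with MafA against 13.4 to 35.1 CPM (log2 fold change −2.27, SE 0.48, edgeR adjusted p = 0.0493). The gaps between the groups were clear for both genes, although St3gal5 lost its call when any 1 of 9 samples was left out. Ttr, the thyroid hormone carrier transthyretin and an α-cell gene, was at 5.14 to 279.7 CPM with MafA (median 70.7) and 3.04 to 22.8 CPM with Pdx1 (median 9.92), so the ranges overlapped. Its log2 fold change was −3.10 (SE 0.60, edgeR adjusted p = 0.0182), and without WT Ngn3+MafA replicate 1, the sample with mesenchyme markers and the highest Ttr, it was −2.26 and no longer called (edgeR adjusted p = 0.0834).

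The other 5 genes called higher with MafA overlapped between the groups and were named after their values were seen. Mmd was at 29.9 to 161 CPM with MafA and 8.97 to 31.8 CPM with Pdx1 (log2 fold change −2.33, edgeR adjusted p = 0.00845), with a single sample of each group inside the other's range. Gsdma, a gasdermin, was at 1.53 to 268 CPM against at most 1.95 CPM (−6.05, edgeR adjusted p = 0.00845). Clec2e, a C-type lectin, was at 1.83 to 26.2 CPM against at most 2.13 CPM (−6.69, edgeR adjusted p = 0.0119). Col5a3, a collagen V chain, was highest in the sample with mesenchyme markers (79.4 CPM) and was not called without it (edgeR adjusted p = 0.0576). Cotl1, an actin-binding protein gene, had the smallest difference of the called genes (−1.35, edgeR adjusted p = 0.0443).

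**Figure D3:**
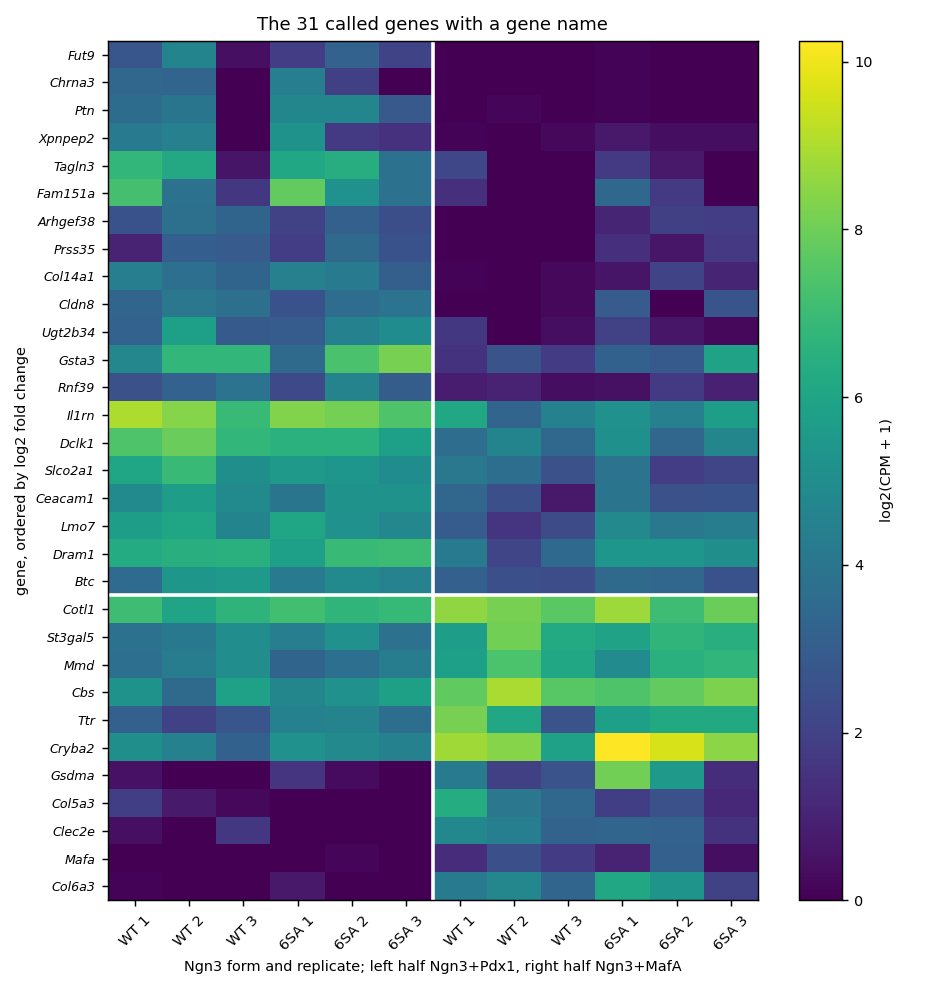
Level of the 31 called genes that have a gene name, as log2(CPM + 1) by colour, in each of the 12 samples (columns) with genes (rows) ordered by log2 fold change. The 20 upper genes were higher with Pdx1 (left columns) and the 11 lower genes higher with MafA (right columns), and WT Ngn3+Pdx1 replicate 3 was at or near 0 for Ptn, Chrna3, Xpnpep2 and Tagln3.

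Gene groups other than the hormones were described by counts against the same background. Among 13 δ-cell genes tested none was called without the block, where the background was 0.133%, and 3 were called higher with Pdx1 with the block, where it was 0.687% in that direction. The median log2 fold change of the list was 1.96 against 0.05 for all genes. Hhex, the homeodomain factor that maintains δ-cells, was at 104 to 358 CPM with Pdx1 (median 255) and 37.4 to 95.9 CPM with MafA (median 61.3), with no overlap (log2 fold change 1.96, SE 0.56, edgeR adjusted p = 0.204, and 0.00337 with the block). Rbp4, retinol-binding protein, was at 92.7 to 527 CPM and 6.20 to 89.3 CPM, also with no overlap (log2 fold change 2.42, SE 0.59, edgeR adjusted p = 0.088, and 0.0297 with the block). Both had the smallest exact permutation p, 0.005, which groups without overlap give by construction. Ptprz1, a receptor phosphatase, was at most 7.25 CPM in any sample (edgeR adjusted p = 0.024 with the block).

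Few other endocrine genes passed the test. Of 29 endocrine transcription factors tested none was called, and Hhex and Isl1 were called higher with Pdx1 with the block. Isl1, a LIM-homeodomain factor of all islet endocrine cells, was at 30.0 to 574 CPM with Pdx1 and 8.17 to 144 CPM with MafA (log2 fold change 1.90, SE 0.63, edgeR adjusted p = 0.324, and 0.00248 with the block). None of 18 granule and prohormone processing genes, 25 exocytosis genes, 20 ion channel genes and 25 neuronal cytoskeleton and adhesion genes was called with or without the block, with medians of 0.03, 0.21, 0.13 and 0.43. Of 25 β-cell genes tested, Iapp was the 1 called with the block, and the list median was 0.09. Of 17 α-cell genes tested, Ttr was called without the block and Gcg and Ttr with it, both higher with MafA, and the median was −0.33. None of 7 ε-cell genes was called.

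Among duct genes, 22 of 24 had a positive log2 fold change, against 53.9% of all genes, and the median was 0.69. None was called without the block. Muc1 (a mucin of the duct surface), Bicc1, Dmbt1 and Pkhd1 (fibrocystin, of primary cilia) were called higher with Pdx1 with it. Muc1 was at 172 to 399.7 CPM with Pdx1 and 53.2 to 158 CPM with MafA, with no overlap (log2 fold change 1.40, SE 0.37, edgeR adjusted p = 0.138, and 0.0494 with the block). The duct keratin Krt7 (0.04, edgeR adjusted p = 1.0) and the duct factor Sox9 (0.29, edgeR adjusted p = 1.0) overlapped between the groups. Of 18 inflammatory epithelial genes tested, Il1rn was called without the block, and Il1rn, the chemokine gene Cxcl5 and the lactoferrin gene Ltf with it, all higher with Pdx1 (list median 0.68). Cxcl5 was at 68.9 to 2564 CPM with Pdx1 and 67.9 to 203 CPM with MafA (log2 fold change 2.75, SE 0.65, edgeR adjusted p = 0.0376 with the block). In sorted pools, more duct-like cells and more RNA per cell cannot be told apart.

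Proliferation genes had the highest list median, 2.78, with 17 of 18 positive. None was called without the block, and Top2a, Ccnb1, Plk1, Birc5 and Mcm5 were called higher with Pdx1 with it. Top2a, the DNA topoisomerase of dividing cells, was at 2.29, 199 and 44.5 CPM in WT and 13.4, 199.97 and 14.8 CPM in 6SA samples with Pdx1, and at 0.522 to 15.1 CPM with MafA (edgeR adjusted p = 0.103, and 0.00919 with the block). The 2 highest samples were both replicate 2. Mcm5, a helicase subunit of DNA replication, was at 11.3 to 57.0 CPM with Pdx1 and 3.21 to 12.4 CPM with MafA (log2 fold change 2.10, SE 0.48, edgeR adjusted p = 0.0795, and 0.00366 with the block). Of 17 CDK inhibitor and p53 target genes 13 were negative (median −0.49) and none was called in either fit.

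Of 12 Wnt feedback genes, Rnf43, a ubiquitin ligase that removes Wnt receptors, and Lgr5, a stem cell receptor, were called higher with Pdx1 with the block. Rnf43 was at 24.4 to 75.2 CPM with Pdx1 and 5.61 to 17.3 CPM with MafA, with no overlap (log2 fold change 1.91, SE 0.41, edgeR adjusted p = 0.0567, and 0.000796 with the block). Of 11 intestinal genes, Vil1 (villin) and Lgr5, and of 13 gastric genes, Gkn3, were called higher with Pdx1 with the block. Of 16 antioxidant response genes, Hmox1 (heme oxygenase) and Srxn1 (sulfiredoxin) were called higher with MafA with the block, and Gsta3 higher with Pdx1. Srxn1 was at 71.2 to 169.6 CPM with MafA and 37.8 to 61.5 CPM with Pdx1, with no overlap (log2 fold change −1.31, SE 0.29, edgeR adjusted p = 0.0567, and 0.0165 with the block). None of the 19 Notch genes, 12 dissociation and heat-shock genes, 14 ER stress genes, 8 acinar genes and 5 immune markers was called in either fit. Of the 9 mesenchyme and endothelium markers, Col1a2 was called higher with MafA with the block, and 2326 of its 2335 counts with MafA were in WT replicate 1.

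**Figure D4:**
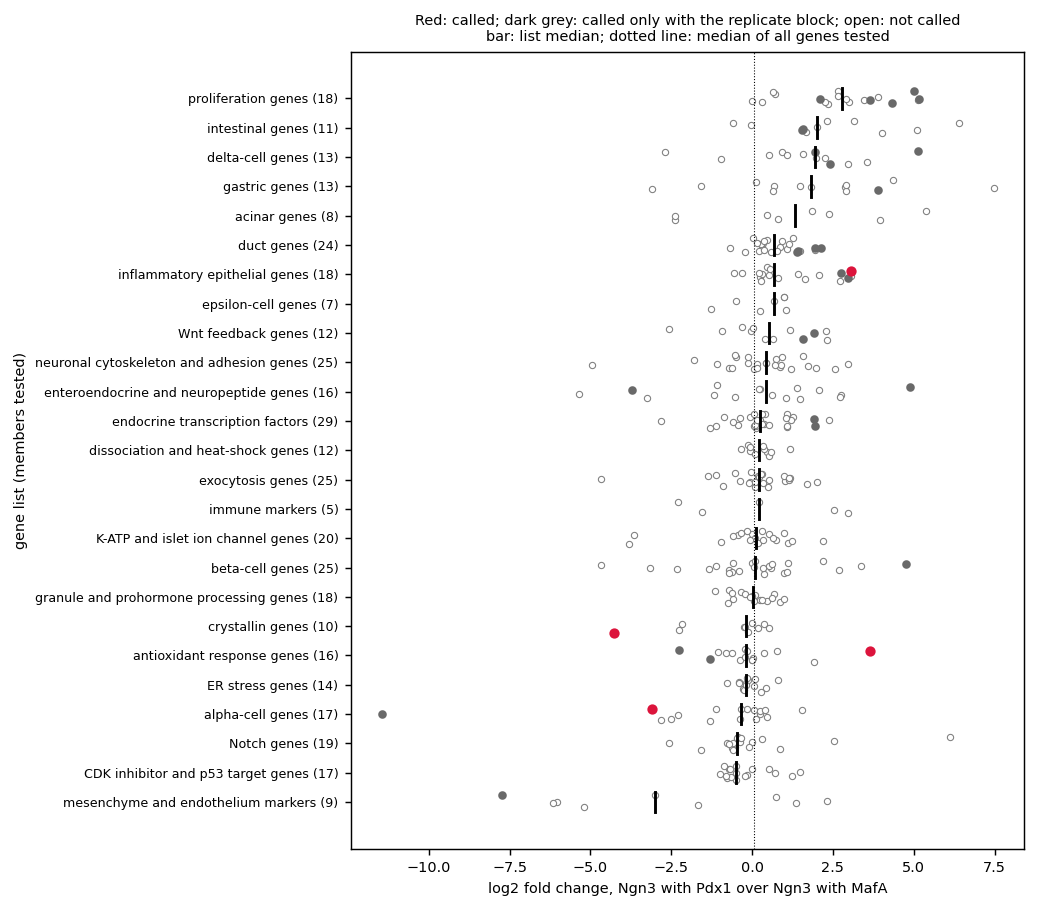
Log2 fold change of Ngn3 with Pdx1 over Ngn3 with MafA (horizontal axis) for each tested member of 25 gene lists (rows, with the number of members tested). Bars are list medians, red points were called, dark grey points were called with the replicate block only and open points were not called. Proliferation genes had the highest median (2.78) and mesenchyme and endothelium markers the lowest (−2.99).

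Within the Ngn3 forms, 3 genes were called in WT cells (0.0125% of genes tested), all higher with Pdx1: Arhgef38 (log2 fold change 9.43, edgeR adjusted p = 0.0183), Lmo7 (3.38, edgeR adjusted p = 0.0183) and Cldn8 (7.91, edgeR adjusted p = 0.0235). The block raised this to 33 genes. In 6SA cells edgeR called 0 genes, with 1009 at an unadjusted p under 0.05, 12 called with the block and 22 by DESeq2. The difference between the forms was tested as an interaction. edgeR called 0 genes with and without the block, 709 had an unadjusted p under 0.05, and DESeq2 called 9. Gip, for which the WT and 6SA differences were 1.44 and 8.33, had an interaction of 6.89 (edgeR adjusted p = 1.0). The Arhgef38 difference was 9.43 in WT and 1.23 in 6SA cells (interaction −8.20, edgeR adjusted p = 1.0), and Arhgef38 was at 0 in all 3 WT samples with MafA and 1.10 to 2.80 CPM in the 6SA ones.

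The same contrast without Ngn3 was available from 4 samples sorted for Pdx1 alone and 5 for MafA alone in the same series. The 4 samples with Pdx1 alone were all at passage 2, and 1 of the 5 with MafA alone was at passage 5. For all 32 called genes the difference without Ngn3 was smaller in size, and 24 had the same sign. The median size was 4.45 with Ngn3 and 0.407 in the same direction without it. The genes were chosen for their difference with Ngn3, which by itself favours a larger value there, so these sizes are a description. The interaction of Ngn3 with the second factor was not past the threshold for any gene by edgeR (0 of 24004, with or without the block, 820 at an unadjusted p under 0.05, 25 by DESeq2), so the smaller size without Ngn3 was not shown for any single gene by that test. Dclk1 (2.67 with and 2.17 without Ngn3), Ceacam1 (2.35 and 1.72), Ttr (−3.10 and −2.64) and Clec2e (−6.69 and −5.42) had values of like size in both backgrounds. Il1rn (3.06 and 1.22), Cbs (−2.84 and −0.42), Cryba2 (−4.28 and −0.40) and Btc (1.97 and −0.29) had values nearer 0 without Ngn3.

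**Figure D5:**
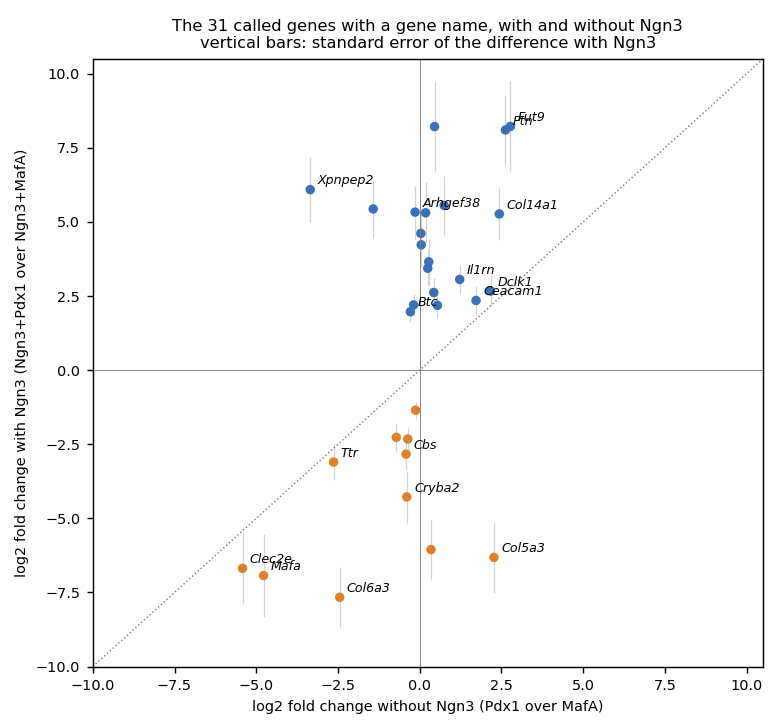
Log2 fold change of the 31 called genes with a gene name without Ngn3 (horizontal axis, Pdx1 over MafA) and with Ngn3 (vertical axis, Ngn3 with Pdx1 over Ngn3 with MafA). Vertical bars are standard errors, the dotted line marks equal values, and most genes lie farther from 0 on the vertical than on the horizontal axis, with Dclk1, Ceacam1, Ttr and Clec2e near the line.

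The levels in those cells placed the called genes in different patterns, given here as medians without a test. Of the 21 genes higher with Pdx1, 14 had a higher median in the 9 samples without Ngn3 than in either combination, and 8 of these 14 also had their lowest median in the 5 samples with all 3 factors. The Il1rn median was 537 CPM without Ngn3, 299 CPM in the Ngn3 and Pdx1 samples, 28.3 CPM in the Ngn3 and MafA samples and 11.2 CPM with all 3 factors. Dram1 followed the same order at 393, 87.8, 25.9 and 7.47 CPM, and Slco2a1 at 137, 43.0, 8.35 and 5.70 CPM. The opposite order was seen for 3 of the 21, which had the lowest median without Ngn3 and the highest with all 3 factors. They were among 6 of the 21 with a higher median with all 3 factors than in either combination. Tagln3 was at 0.0576 CPM without Ngn3, 0.311 CPM with Ngn3 and MafA, 70.9 CPM with Ngn3 and Pdx1 and 643 CPM with all 3.

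Of the 11 genes higher with MafA, 7 had a lower median without Ngn3 than in either combination and none a higher one. For Gsdma and Col5a3 this rested on 0 CPM against 0.116 and 0.082 CPM with Ngn3 and Pdx1, below the level that 3 counts can show. No group of the series was sorted for Ngn3 alone, so an effect of adding either factor to Ngn3 was not tested. Cryba2 had a median of 0.214 CPM without Ngn3 and 24.4 CPM in cells sorted for Ngn3 plus Pdx1. Its median was 398 CPM where MafA was the second factor and 402 CPM with all 3 factors. St3gal5 was at 12.4, 18.3, 81.5 and 183 CPM in the same order of groups. Cbs differed from them, since its median with all 3 factors, 21.5 CPM, was near the 19.9 CPM without Ngn3 and far below the 218 CPM with Ngn3 and MafA. With all 3 factors Cbs ranged from 5.63 to 64.1 CPM, below every sample with Ngn3 and MafA.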

How the data were processed

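RNA from pools of sorted cells was amplified and made into libraries with the Nextera XT kit for Illumina sequencing. Per the submitters' processing notes, GSNAP, HTSeq (0.5.3p3) and the mm10 build were used. The authors deposited raw counts per Ensembl gene for 46078 genes and 92 spike-ins, and the strand setting of the counting was not given in the sources used here. Groups were taken from the deposited labels. Unassigned reads and spike-ins were left out of library sizes. The unassigned share was 37.5 to 56.5% of the reads in the 20 libraries, spike-ins were at most 0.274%, and mitochondrial genes took 2.76 to 14.0%.

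Libraries with under 25% of counts on spike-ins, over 1000000 gene counts and over 10000 detected genes were kept (58 of 61), and technical repeats were summed. None of 35 pairs of repeats agreed within sampling noise. A gene was tested if it was detected in at least 5 kept libraries and its log2(CPM + 1) varied by more than 0.001 (variance). All 12 conditions of the series were fitted in 1 edgeR model (version 4.0.16, R 4.3.3, TMM scaling, quasi-likelihood F test, legacy setting, no covariate), with Benjamini-Hochberg adjustment over all genes and a threshold of 0.05. Samples of the same number were taken as paired. Within each Ngn3 form the deviations of the 2 combinations from their group means correlated by 0.140 to 0.651 over 5000 genes in all 6 pairs, and all 12 samples correlated best with their own number. Values from the fit with the number as a block are therefore given where they change a call. The exact permutation test was two-sided, on log2(CPM + 1), with labels exchanged within each Ngn3 form. Labels were not kept within pairs of the same number, so its p-values ignore the pairing. Counting intervals are at the 95% level, and for every gene they ignore the spread between samples and between technical repeats.

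Alternatives were DESeq2 (1.42.0), other size factors and gene filters, edgeR without the legacy setting, the first technical repeat only, all libraries, each passage alone, the 4 conditions alone, blocks, and leaving out each sample. The scripts were tested on simulated data. The genes named were the factors and hormones, up to 15 called genes a side whose groups did not overlap, up to 4 called members of each gene list, and genes past the threshold in an interaction. Predicted genes were counted and not named by that rule. Other genes, among them those passing with the block only, were chosen after their values were seen. The comparison and the gene lists were chosen with earlier results of these data known. List symbols Tmem27 and Scn2a1 matched no gene.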

Additional observations from a re-analysis of the deposited data

Results flagged for a closer look

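In 7 of 74 groups of 6 samples (9.46%), 1 sample stood farther from the rest than Dixon's 95% critical value of 0.625 for its gap as a share of the range. Chance gives about 1 in 20 for 6 draws from a single normal distribution. These groups hold CPM values and mix Ngn3 forms and passages, so that rate may not apply. WT Ngn3+Pdx1 replicate 3 was the sample in 4 of the 7 groups. It had Sst at 19.03 CPM where the other samples with Pdx1 had 5788 CPM or more, Iapp at 9.514 CPM where they had at least 391.5 CPM, and Cryba2 at 8.038 CPM where they had at least 21.58 CPM. It also had Clec2e at 2.132 CPM where they had at most 0.3466 CPM. In 6SA Ngn3+Pdx1 replicate 1, Col6a3 was at 0.6344 CPM against at most 0.06932 CPM in the other samples with Pdx1, and Gsdma at 1.949 CPM against at most 0.4159 CPM. Ppy was at 11.21 CPM in 6SA Ngn3+MafA replicate 2 and at most 0.08066 CPM in the other samples with MafA. Their causes were not tested.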

How the results depend on the processing

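Across the alternatives the 32 called genes kept their direction, except with passage 5 alone, where Xpnpep2 was at −0.60 and Chrna3, with no counts, had no direction. The number of called genes moved more. It was 216 with the replicate block, 255 with a block for each culture, 285 by DESeq2, 101 by edgeR without the legacy setting, 55 with the first technical repeat only, 634 with no gene filter and 0 with passage 5 alone, where 1 sample stood for each group and was assumed to vary like the others. Leaving out 1 sample gave 15 to 51 genes. The count was 15 without WT Ngn3+Pdx1 replicate 2 or 6SA Ngn3+MafA replicate 2, 17 without WT Ngn3+MafA replicate 2, 20 without 6SA Ngn3+Pdx1 replicate 2, 21 without 6SA Ngn3+MafA replicate 3 and 51 without 6SA Ngn3+Pdx1 replicate 1. Between 4 and 18 of the 32 genes lost their call when a sample was left out, 13 with passage 2 alone, 13 with the 4 conditions alone (31 called), and none with DESeq2, either block or no gene filter. The causes of these shifts were not tested.

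In WT cells 3 genes were called, and the number was 93 by DESeq2, 1 by edgeR without the legacy setting, 6 with the first technical repeat only, 288 with no gene filter, 0 within passage 2, within passage 5 or with the 4 conditions alone, 33 with the replicate block, 57 with a block for each culture and 0 to 5 with a sample left out. In 6SA cells, with 0 called, it was 22 by DESeq2, 183 with no gene filter, 2 within passage 2, 12 with the replicate block, 20 with a block for each culture and 0 to 2 with a sample left out. The interaction with the Ngn3 form, with 0 called, gave 9 by DESeq2, 34 with no gene filter and 0 to 2 with a sample left out, and that with Ngn3 presence 25 by DESeq2, 126 with no gene filter and 0 with any sample left out.

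Some genes that were not called changed sign. Neurog3 ranged from −1.16 to 0.16 with a sample left out, the latter without WT Ngn3+MafA replicate 2. Ppy was −0.83 within passage 2, −0.63 without 6SA Ngn3+Pdx1 replicate 3 and −1.63 without WT Ngn3+Pdx1 replicate 1, and reached 5.26 with a sample left out. Ghrl was 0.52 within passage 5 and −1.05 to 0.10 with a sample left out, the latter without 6SA Ngn3+MafA replicate 2. Pyy was −0.77 within passage 2, −0.55 with a block for each culture, −0.06 without 6SA Ngn3+MafA replicate 3 or WT Ngn3+MafA replicate 3, −0.46 without 6SA Ngn3+Pdx1 replicate 3 and −1.80 without WT Ngn3+Pdx1 replicate 1, and reached 1.09 with a sample left out. At the lowest depth, differences of genes under about 1 CPM were not detectable.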
